A study of Mus musculus with 18 samples.

Results

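The genes Il1a, Il1b and Il1rn encode the ligands IL-1α and IL-1β and the IL-1 receptor antagonist. Their chromatin was described from the reference peaks, summits and extended regions of an ATAC-seq catalog. A peak, summit or region was counted as belonging to a gene if it lay in the gene body or at most 50 kb from its most upstream start site (GENCODE M21, mm10). By this rule the 3 genes had 61 of the 82391 reference peaks, 70 of the 84660 summits and 40 of the 59617 extended regions. The extended regions are longer stretches around the peaks, in which neighbouring peaks are joined. Il1a had 19 peaks and 20 summits, Il1b had 32 peaks and 40 summits, and Il1rn had 16 peaks and 16 summits. The windows of Il1a and Il1b overlap, so that 6 peaks and 6 summits were counted for both.

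ATAC-seq marks accessible DNA by the insertion of adapters with the transposase Tn5. The cells were wild type mouse macrophages grown in culture from bone marrow precursors (BMDMs), and every group, the untreated one included, was given DMSO as vehicle for 1 h. After this, LPS (lipopolysaccharide, a ligand of TLR4) or IL4 was added to the stimulated groups at 10 ng/mL, and these cells were harvested after 30 min or after 1, 2 or 4 h. The marrow came from male C57/BL6 mice aged 6 to 8 wk, as the study's methods state. In all, 18 libraries formed 9 groups of 2 libraries. The lists pool all groups and name no library, so that nothing below separates untreated, LPS and IL4 cells, and no value has a replicate error. For the same reason the depth behind each library is unknown here. As a check of the cell type, reference peaks lay at a start site of all 7 macrophage markers examined, against 2 of 11 markers of other bone marrow cells and 56.5% of all protein-coding genes. The 2 exceptions, Pax5 of B cells and Col1a1 of stroma, had best scores of 634 and 613 there. Both lie below the lowest value among the macrophage markers, which was 1176 for Csf1r.

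IL-1α and IL-1β bind the same receptor, IL1R1, and signal through MYD88 to NF-kB and the MAP kinases. IL-1β is made as a precursor that caspase-1 cleaves in inflammasomes, whereas IL-1α is active without this cleavage. The receptor antagonist occupies IL1R1 without signaling, and macrophages make all of these proteins after microbial stimulation.

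The promoter sequences of the members are shown first, because the start sites of the 3 genes differed in how much of them the catalog covered. Each is the stretch of 250 bases before a RefSeq start site, from 5′ to 3′ on the strand of the gene (GRCm38.p6, which has the coordinates of mm10). Capitals mark a TATAAA box between positions -40 and -15, or a match to 1 of 11 transcription factor consensus sequences searched on both strands. All 3 genes were found in the RefSeq promoter table, with 5 promoters among them, and 4 of these are shown. They lie at chr2:129309973-129310222 for Il1a, chr2:129371140-129371389 for Il1b, chr2:24336610-24336859 for the upstream promoter of Il1rn and chr2:24345041-24345290 for a downstream promoter of Il1rn.
Il1a promoter: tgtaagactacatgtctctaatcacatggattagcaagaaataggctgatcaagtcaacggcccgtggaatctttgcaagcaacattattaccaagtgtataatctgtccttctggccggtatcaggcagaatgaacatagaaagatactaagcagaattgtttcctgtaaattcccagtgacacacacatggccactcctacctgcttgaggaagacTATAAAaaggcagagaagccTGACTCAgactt
Il1b promoter: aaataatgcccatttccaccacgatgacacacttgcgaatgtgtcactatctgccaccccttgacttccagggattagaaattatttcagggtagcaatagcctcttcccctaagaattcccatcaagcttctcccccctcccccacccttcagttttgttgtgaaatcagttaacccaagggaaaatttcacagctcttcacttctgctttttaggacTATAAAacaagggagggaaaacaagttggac
Il1rn upstream promoter: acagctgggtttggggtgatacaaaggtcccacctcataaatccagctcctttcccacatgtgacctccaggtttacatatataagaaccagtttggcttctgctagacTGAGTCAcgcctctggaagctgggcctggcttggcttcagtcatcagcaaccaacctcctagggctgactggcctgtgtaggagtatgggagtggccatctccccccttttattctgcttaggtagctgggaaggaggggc
Il1rn downstream promoter: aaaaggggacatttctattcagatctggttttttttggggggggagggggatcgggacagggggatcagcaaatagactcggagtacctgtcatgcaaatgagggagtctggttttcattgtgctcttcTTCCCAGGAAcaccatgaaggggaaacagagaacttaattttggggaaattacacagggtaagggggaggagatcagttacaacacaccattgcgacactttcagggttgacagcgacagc

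Both ligand genes had a TATA box, and neither of the Il1rn promoters shown did. In Il1a the letters TATAAA began at position -32, and in Il1b at -31. A TATAAA at this distance was found in 1.99% of all 32851 promoters of the table. Il1a also held the AP-1 consensus TGACTCA at positions -12 to -6. The same consensus occurred as TGAGTCA at -141 to -135 of the upstream Il1rn promoter, and 4.46% of all promoters had either form. AP-1 is a dimer of FOS and JUN proteins that MAP kinases activate. The downstream Il1rn promoter held the STAT6 consensus, the motif of the factor that the IL-4 receptor activates, at -121 to -112. This consensus was present in 5.85% of all promoters. None of the 11 consensus sequences was found in the Il1b promoter window. The ratio of observed to expected CpG was taken over the full entries of the promoter table, which also run past the start site. It was 0.334 for Il1a, 0.202 for Il1b, 0.0457 for the upstream and 0.333 for the downstream Il1rn promoter. The median over all promoters was 0.384. All 4 ratios lay below it, but those of Il1a and the downstream Il1rn promoter were close to it. Of all promoters, 45.5% had a lower ratio than Il1a and 45.4% a lower one than the downstream Il1rn promoter. These shares were 29.0% for Il1b and 5.68% for the upstream Il1rn promoter.

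The catalog covered these promoters to different extents. Of the 250 bases, 152 lay in reference peaks for Il1a and 250 for Il1b. For Il1rn, 0 bases of the upstream promoter and 205 of the downstream promoter shown did. The downstream promoter not shown, before the start site at 24345371, had all 250 bases in peaks. A reference peak lay within 1000 bp of an annotated start site in all 3 genes, as in 12402 of 21938 protein-coding genes (56.5%). The peaks differed in the score of their best summit, a value of the merged peak call whose scale is not stated, which is used here only to rank summits. Over all summits the score ran from 102 to 2781, with a median of 737, a lower quartile of 486 and an upper quartile of 1153. At the start site, the score was 534 for Il1a, 1071 for Il1b and 1543 for Il1rn. Among the 12402 coding genes with a start site peak, 4.06% scored lower than Il1a, 24.8% lower than Il1b and 55.6% lower than Il1rn. The order was therefore Il1rn, Il1b and Il1a. Within 2500 bp of a start site it was Il1b (1799), Il1rn (1543) and Il1a (748). Since the lists have no column per library, it cannot be said which of these neighbours differ beyond the spread between libraries.

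Il1b occupies 6570 bp on the minus strand (chr2:129364570-129371139). Its body stood out by the share inside reference peaks, which was 75.2%, whereas the median over the 21938 protein-coding genes was 0.871%. In all, 11 reference peaks touched the gene. Only 14 coding genes, Il1b included, reached such a share. Most of the others are short, among them the histone gene Hist1h2ak, and they include Tnf with 89.5% and Cxcl10 with 83.8%. Of the 16413 other coding genes at least as long as Il1b, none had a larger share. The next were Acod1, which encodes the enzyme that makes itaconate, with 74.8%, and Tnfaip2 with 71.5%. Hist1h2ak, Acod1 and Tnfaip2 are named because of these values.

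In the merged call the whole stretch was a single peak, divided into 20 listed summits. It held 13 reference peaks between 129363201 and 129371517, thus covering 8317 bp, of which 6660 bp (80.1%) were in peaks. The gaps between neighbouring peaks were at most 340 bp, and 3 of the 12 gaps were 0. The stretch began 378 bp before the start site and ended 1369 bp past the end of the gene. Exons 1 to 6 lay completely in reference peaks, and 48.4% of exon 7, which holds the 3′ untranslated region, did. Of the 20 summits, 1 lay before the start site, 15 in the gene and 4 past its end. By the transcript with 7 exons, 5 of the 15 were in exons and 10 in introns, and its exons make up 20.6% of the gene. Of the 10, 1 lay in an exon of another annotated Il1b transcript. Neighbouring summits were 176 to 729 bp apart, with a median of 456 bp.

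Only 6 of the 69718 peaks of the merged call had more summits than the one over Il1b, and 84.7% had 1. The corresponding extended region, chr2:129362501-129372217, was 9717 bp long and ranked 9 of 59617 by its number of summits. Its extent did not go with high scores. The summits beside the start site scored 1071, at 225 bp upstream, and 945, at 55 bp downstream. The other 18 summits ranged from 102, the lowest score of the list, to 505, the summit at 2922 bp into the gene. In all, 17 of the 20 summits were at or below the lower quartile of all scores, and 0 were at or above the upper quartile. The median of the 20 scores was 278. For comparison, 28 other peaks of the merged call had at least 10 summits each. Their median scores ran from 211 to 1406, and 6 of the 28 were lower than that of Il1b. Of their 437 summits, 53.3% were in the lower quartile of all scores, against 85.0% of the 20 over Il1b. The share of the Il1b body in peaks depended on these low values: it was 18.8% when only peaks with a score at or above the lower quartile were counted, and 3.67% with peaks at or above the median. By these counts 307 and 2722 coding genes had at least as large a share.

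**Figure D1:**
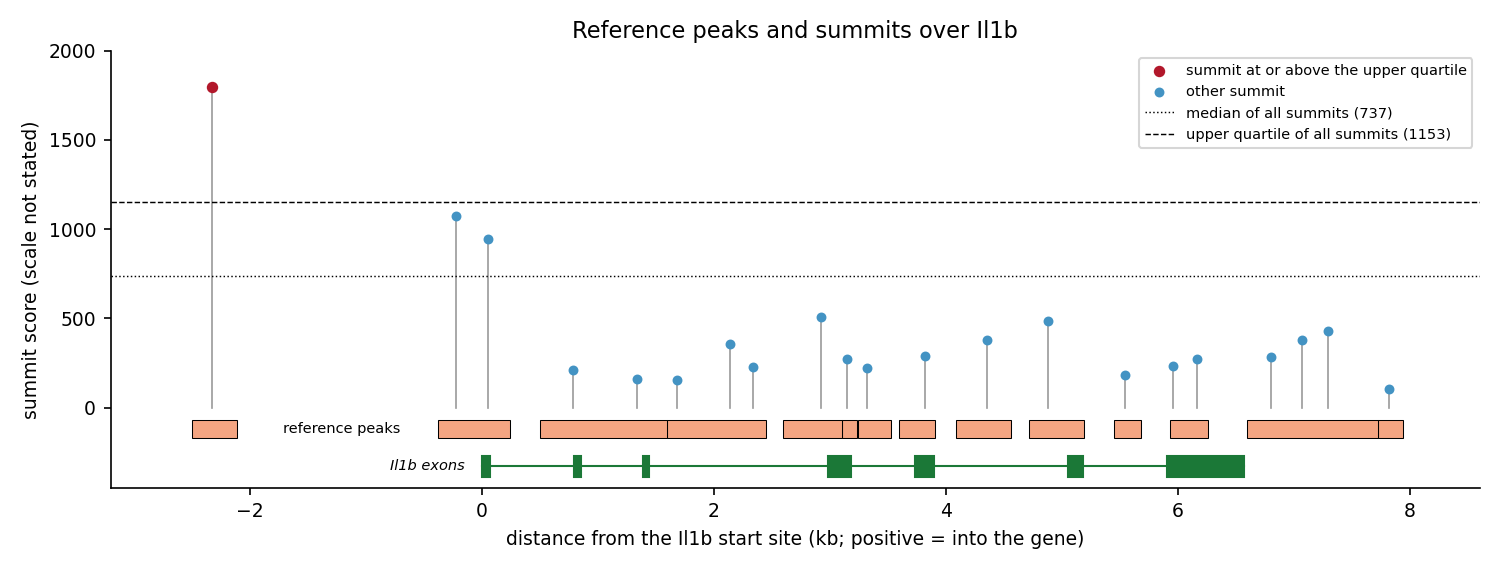
Summit scores (vertical axis, scale not stated) against the distance from the Il1b start site in kb (horizontal axis, positive into the gene), each point being 1 summit, with reference peaks as boxes and the Il1b exons below. The 2 summits beside the start site score 945 and 1071, the other summits of the gene and its 3′ flank lie between 102 and 505, and the summit at 2329 bp upstream scores 1799.

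Outside this stretch the Il1b window held 20 summits with a median score of 623.5, from 167 to 1799. The highest was 2329 bp upstream of the start site, in a peak of 384 bp (chr2:129373253-129373636). It lay in an exon of Il1bos, an antisense transcript of Il1b, and the nearest edge of the peak was 124 bp from an Il1bos start site. Whether it belongs to Il1b or to Il1bos cannot be told apart from positions alone. The start sites of Il1bos inside the Il1b gene lay in a peak with a best score of 211. Farther upstream, 3 summits at 9231, 9792 and 10117 bp shared an extended region of 2512 bp and scored 1212, 934 and 439. Past the end of the gene, 2 summits at 10310 and 10798 bp from the start site scored 654 and 1543.

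Il1a lies on the same strand (chr2:129299610-129309972, 10363 bp), and its start site is 61167 bp from that of Il1b. In contrast to Il1b, 3 reference peaks touched the gene and 5.36% of its body was in peaks. The start site peak (chr2:129309844-129310124) had its summit 46 bp upstream. With its score of 534, it was lower than the other peaks of the gene. A summit in an intron, 3774 bp downstream, scored 1106 and one in the 3′ untranslated exon scored 780. Both of these overlap the transcript Gm14023, which runs on the opposite strand. Close to the start site, summits at 873 and 1784 bp upstream scored 402 and 748, and they formed an extended region of 3514 bp together with the start site.

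The higher scores around Il1a were found away from the start site. The highest score, 1929, belonged to a summit 12680 bp downstream of the start site of Il1a. It lay 80 bp from the start site of Ckap2l, which encodes a protein of the mitotic spindle, in a peak that also covered the start site of Gm14023. The next, 1812, was located 10185 bp upstream of Il1a in intergenic DNA, in a peak of 614 bp. Of the 6 summits shared with the Il1b window, 2 were at or above the upper quartile. These were 20791 and 28421 bp upstream of Il1a and scored 1332 and 1657. The 54597 bp between the genes contained 16 of their 45 joint peaks. Peaks were lacking in 33634 bp over Ckap2l (chr2:129263432-129297065) and in 17782 bp between the genes (chr2:129342388-129360169).

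**Figure D2:**
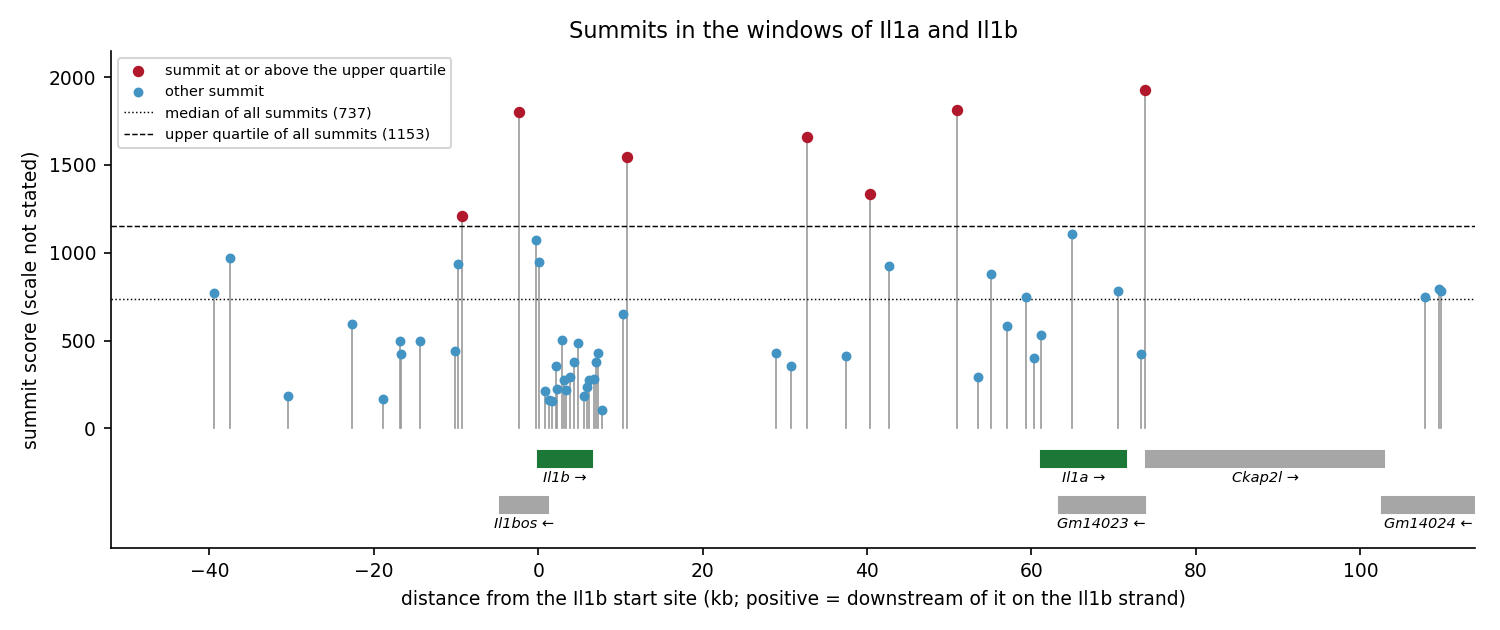
Summit scores (vertical axis, scale not stated) in the joint windows of Il1a and Il1b against the distance from the Il1b start site in kb (horizontal axis, positive downstream), with 1 point per summit, genes as bars and arrows for their direction. The 20 summits of the stretch over Il1b lie close together, 18 of them between 102 and 505, and the 7 summits at or above the upper quartile of 1153 lie outside both gene bodies.

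Il1rn lies 105.0 Mb away on the plus strand (chr2:24336853-24351494, 14642 bp), and 4.28% of its body was in 3 reference peaks. Its start sites fall into an upstream and a downstream group. The most upstream start site had no reference peak within 1000 bp: the nearest (chr2:24335316-24335628) was 1225 bp away and scored 1308. The downstream start sites at 24345288, 24345310 and 24345348 were all inside a peak of 290 bp (chr2:24345086-24345375) that scored 1543. In RefSeq, the start site at 24336860 belongs to transcript variant 1, which encodes isoform 1. Those at 24345291 and 24345371 belong to variants 3 and 2, of which variant 2 encodes the isoform annotated as a precursor. A precursor carries the signal peptide of the secreted antagonist, while the forms without it stay in the cell. Thus, the start sites of variants 2 and 3 lay in the reference peak and that of variant 1 was 1232 bp from the closest one. Which of these transcripts the cells made was not analysed here.

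Between these groups, a summit in an intron of Il1rn, 4781 bp from the upstream start site, scored 1531. The highest score of the window was 1556, for an intergenic summit 24955 bp upstream. Toward the other end of the window, 2 summits at or above the upper quartile lay at start sites of Psd4, a neighbouring gene, with scores of 1164 and 1332. On the opposite side the neighbour Il1f10, another member of the IL-1 family, had no start site peak, and the closest peak was 3885 bp away. The remaining 10 summits of the Il1rn window scored between 290 and 634.

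**Figure D3:**
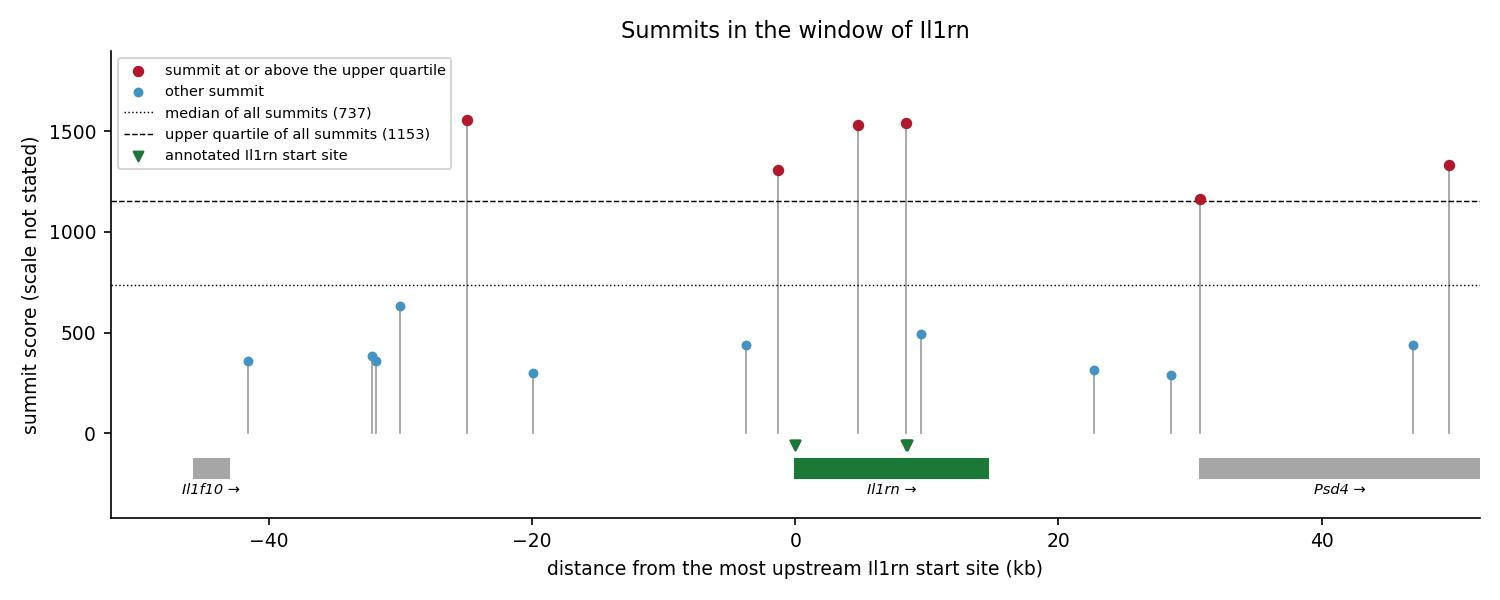
Summit scores (vertical axis, scale not stated) in the window of Il1rn against the distance from its most upstream start site in kb (horizontal axis), with 1 point per summit, genes as bars and triangles at the annotated Il1rn start sites. A summit with a score of 1543 lies at the downstream start sites, while the summit closest to the upstream start site lies 1344 bp before it.

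Across the 3 windows, 13 of the 70 summits (18.6%, 95% Wilson interval 11.2 to 29.2%) were at or above the upper quartile, which 25.2% of all summits were by construction and ties. The interval includes this background, but it covers counting error only and treats the summits as independent. They are not, since 20 of the 70 belong to 1 peak of the merged call, so the interval is a description and not a test. By gene, the counts were 4 of 20 for Il1a, 5 of 40 for Il1b and 6 of 16 for Il1rn. The median score was 764 for Il1a, 425.5 for Il1b and 467 for Il1rn. Summits at or below the lower quartile made up 50.0% of the members and 25.4% of the list. Without the 20 summits of the stretch over Il1b, 13 of 50 summits (26.0%) were at or above the upper quartile and the median was 644. Of the 35 summits at or below the lower quartile, 17 had been in this stretch. The other 18 made up 36.0% of the 50, against 25.4% of the list. Summits over 1000 bp from any start site had a median of 495 among the members (n = 47) and 664 in the list (n = 59886).

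The number of peaks per window ranked the 3 genes in another order. Il1b had more reference peaks than 98.8% of protein-coding genes, Il1a more than 90.9% and Il1rn more than 85.7%. The median gene had 6. Counting only peaks with a summit at or above the median score left 10 for Il1b, 11 for Il1a and 6 for Il1rn. Il1b was then above 88.4% of the coding genes, Il1a above 91.1% and Il1rn above 69.6%, and the order of the ligands turned. It also turned with a flank of 100 kb, where Il1a had 46 peaks and Il1b 44. Il1rn was above 70.5% of the coding genes with a flank of 20 kb and above 69.1% with 100 kb.

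Sequences at the best scored summit over 1000 bp from any coding start site are shown for each gene, because these summits outscored the promoters. The one upstream of Il1b lies in the Il1bos exon described above. Each comprises 201 bases centred on the summit, on the strand of the gene: chr2:129373368-129373568 for Il1b, chr2:129320057-129320257 for Il1a and chr2:24311798-24311998 for Il1rn. Capitals mark the consensus matches as above.
Il1b, 2329 bp upstream: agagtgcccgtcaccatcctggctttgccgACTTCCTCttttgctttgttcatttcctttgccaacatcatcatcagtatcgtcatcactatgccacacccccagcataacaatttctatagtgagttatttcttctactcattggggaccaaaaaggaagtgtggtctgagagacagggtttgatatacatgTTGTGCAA
Il1a, 10185 bp upstream: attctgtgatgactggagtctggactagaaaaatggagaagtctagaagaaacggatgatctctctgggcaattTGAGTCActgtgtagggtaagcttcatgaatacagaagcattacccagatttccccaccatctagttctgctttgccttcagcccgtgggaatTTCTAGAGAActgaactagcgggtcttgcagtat
Il1rn, 24955 bp upstream: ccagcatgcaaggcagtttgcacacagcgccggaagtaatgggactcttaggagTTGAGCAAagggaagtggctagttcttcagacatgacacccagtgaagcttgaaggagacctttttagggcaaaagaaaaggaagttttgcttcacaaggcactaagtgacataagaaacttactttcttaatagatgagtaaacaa

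The sequence upstream of Il1b held the PU.1 consensus GAGGAAGT on the other strand, as ACTTCCTC, and the C/EBP consensus TTGCNNAA as TTGTGCAA, also on the other strand. PU.1 and C/EBP factors are lineage factors of macrophages. That upstream of Il1a held the AP-1 form TGAGTCA, at 26 to 20 bases before the summit, and a STAT6 consensus. A C/EBP match, TTGAGCAA, was found upstream of Il1rn. A match is a run of letters and does not show that a factor was bound.

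Over all 70 summits, 40 (57.1%) had at least 1 of the 11 consensus sequences within 100 bp, close to the 58.3% of all summits. In whole reference peaks it was 43 of 61 (70.5%), against 61.8% of all peaks. NF-kB, the factor downstream of Toll-like receptors, matched at 7 summits (10.0%, against 5.55% of all). Of these, 3 were among the 6 summits between Il1a and Il1b that both windows share, 3 were in the Il1rn window and 1 was 9792 bp upstream of Il1b. AP-1 matched at 10 (14.3% against 15.9%) and PU.1 at 8 (11.4% against 9.08%), although within 50 bp PU.1 matched at 4 (5.71% against 6.44%). C/EBP was found at 10 (14.3% against 11.4%), at 16 within 200 bp (22.9% against 18.4%) and in 14 of the 61 whole peaks (23.0% against 13.3%). RUNX, TGTGGTT, was found at 6 (8.57% against 7.91%). STAT, TTCNNNGAA, was found at 7 (10.0% against 6.35%), but at 2 within 50 bp (2.86% against 3.2%) and at 13 within 200 bp (18.6% against 12.1%). These counts are small and neighbouring windows can share sequence, so nothing is called particular to the genes from them.

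STAT6 matched at 3 summits (4.29% against 6.81%), at 1 within 50 bp (1.43% against 3.75%) and at 6 within 200 bp (8.57% against 11.8%). The 3 were the downstream start site of Il1rn, the summit 10185 bp upstream of Il1a and the one 10798 bp from the start site of Il1b, past its end. IRF, the factor family of the interferon response, matched at 1 summit (1.43% against 3.64%), at 0 within 50 bp and at 5 within 200 bp (7.14% against 6.51%), and in 4 of the 61 whole peaks (6.56% against 4.36%). SP/KLF, GGGCGGGG, matched at 1 summit (1.43% against 7.15%), as did CTCF (1.43% against 2.76%). CREB, TGACGTCA, matched at 0 of 70 summits, and at 0.938% of all. The member windows had a median GC content of 46.5%, against 50.2% over all summits. Of the 20 summits in the stretch over Il1b, 5 had any of these motifs, whereas 35 of the other 50 (70.0%) and 58.3% of all summits did.

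**Figure D4:**
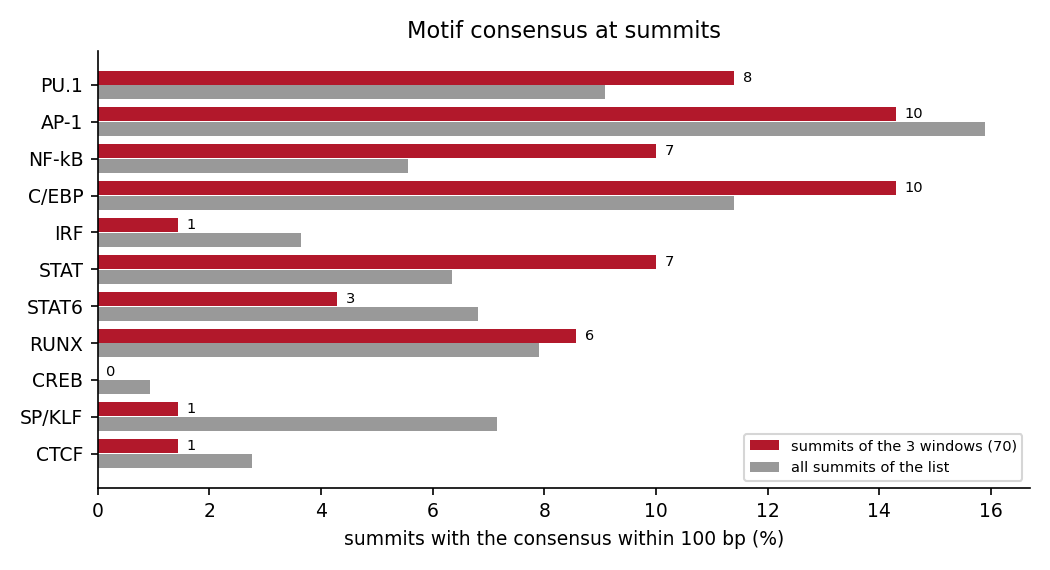
Share of summits (horizontal axis, percent) with each consensus within 100 bp on either strand, for the 70 summits of the 3 windows (red, with the number of summits beside the bar) and for all 84660 summits (grey). No motif exceeds 10 of the 70 summits, and 40 have at least 1.

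In the wider IL-1 pathway, the share of genes with a start site peak differed between the lists, beside the 56.5% of all coding genes. Of 7 further genes of the IL-1 family, only Il18, which encodes the inflammasome-cleaved cytokine IL-18, had one, with a score of 1632. Il33, Il1f5, Il1f6, Il1f8, Il1f9 and Il1f10 had none. Of 9 genes for receptors and binding proteins 7 had one, among them the signaling receptor Il1r1 (1332), its partner Il1rap (1929) and the decoy receptor Il1r2 (644), while Il1rl1 and Il18r1 did not. All 7 genes of processing and release and all 7 signaling genes had one, including Casp1 (1581), which cleaves pro-IL-1β, Myd88 (2114), the adaptor of the receptor, and Irak3 (1224), an inhibitor of it. The inflammasome sensor Nlrp3 had 36 peaks in its window and 26.7% of its body in peaks, the largest share among these 30 genes of the pathway.

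The 10 other cytokine and chemokine genes of the LPS response spanned a wide range, with values near Il1a and above Il1b, in how much of the gene body was in peaks. All 10 had a start site peak, against 56.5% of all coding genes. The median share of the body in peaks was 42.0%, and it ranged from 1.45% in Il12b to 89.5% in Tnf. Shares in Ccl3, Ccl4, Ccl5 and Cxcl2, which attract leukocytes, were between 35.2 and 61.3%, while that of Il6 was 5.93%, near the 5.36% of Il1a. Tnf and Cxcl10 are shorter than Il1b, with 2627 and 2252 bp. A start site score below that of Il1a was found in 1 of the 10, the anti-inflammatory cytokine Il10, with 332.

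**Figure D5:**
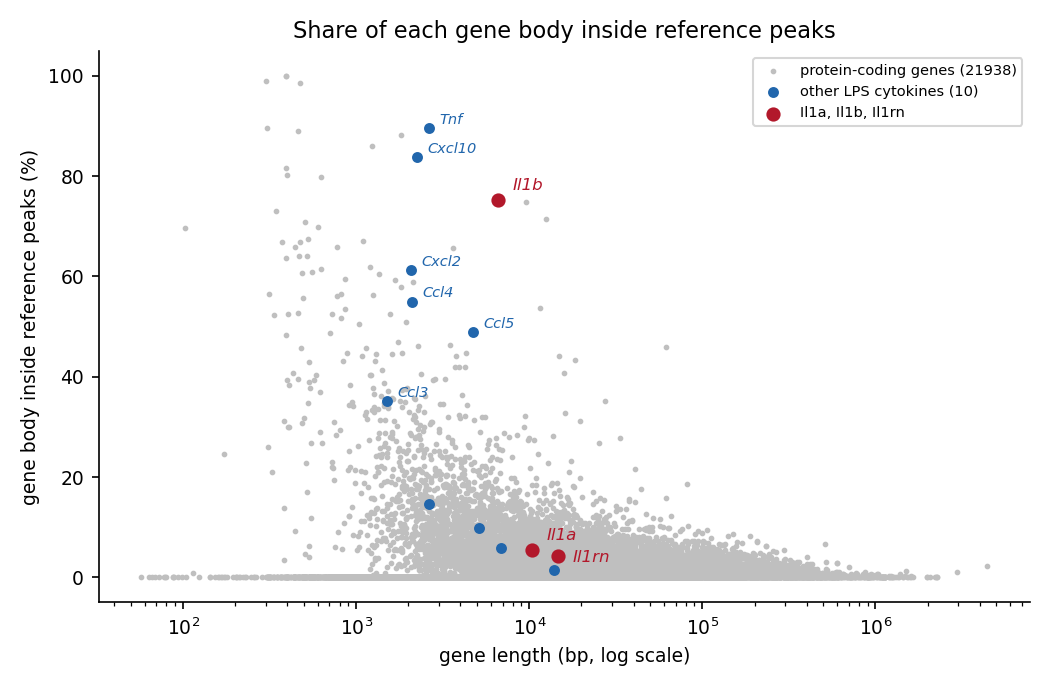
Share of the gene body inside reference peaks (vertical axis, percent) against gene length in bp (horizontal log axis), with grey points for the 21938 protein-coding genes, blue for 10 other cytokine genes of the LPS response and red for the members. Il1b lies at 75.2%, above all genes of its length or longer, whereas Il1a lies at 5.36%, above 87.3% of the genes, and Il1rn at 4.28%, above 83.1%.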

How the data were processed

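ATAC-seq libraries had been prepared from BMDMs and sequenced single-end (76 bases). The study's methods name BBDuk for the removal of adapters, Trimmomatic 0.39 for trimming, ShortStack for alignment to mm10 and SAMtools 1.9 for filtering. MACS2 2.2.6 was used for peak calling, with duplicate reads kept and sub-peak summits called, and the reference set kept peaks that passed a strict q-value limit in single samples and overlapped between replicates. How this limit relates to the score of the merged call was not tested. Duplicates can raise a peak's height, and no shift of reads to the Tn5 cut site is named.

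The deposited files are 3 BED lists pooled over the libraries. Those of reference peaks and extended regions hold positions only, and that of summits adds a name and a score, as deposited by the authors, whose scale is not stated. Summit names were used to identify the peaks of the merged call. No column belonged to a single library (and 0 columns belonged to other samples), so no groups were compared, no test was made and no depth or precision per library could be derived. Intervals cover counting error only and treat summits as independent, which those sharing a peak are not.

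Positions are on mm10, counted from 1, and no entry ran past a chromosome end of GRCm38.p6 (21 of 21 chromosomes). Genes and start sites are those of GENCODE M21, and promoter sequences and Il1rn isoforms those of RefSeq. Shares of coding genes, scores and motifs over the whole lists are given as background. The consensus for AP-1, NF-kB, C/EBP, IRF, STAT, STAT6 and CTCF was searched with ambiguous bases, and motifs can overlap one another. Named are the members, coding genes with start sites in their windows and lists of IL-1 pathway, LPS response and marker genes. Genes named outside this rule were chosen after their values were seen. The members and lists were chosen with earlier results of these data known. Alternatives comprised other windows, start sites, region types, score limits and motif windows. Scripts were written in Python 3.11.15 (numpy 2.4.6, pandas 2.3.3, scipy 1.17.1, matplotlib 3.10.9), and counting and motif search were tested on simulated data.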

Additional observations from a re-analysis of the deposited data

How the results depend on the processing

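Of 66 alternatives run, 47 left the value within the limits set and 19 moved it, 10 of the latter being single motif counts, of which PU.1 and STAT within 50 bp, and IRF within 200 bp and in whole peaks, changed side against the share over the whole list. AP-1 in whole peaks (21.3% against 17.0%), RUNX within 200 bp (11.4% against 12.0%) and any of the 11 motifs in whole peaks (70.5% against 61.8%) changed side too. With a flank of 20 kb in place of 50 kb, Il1a had 12 peaks and Il1rn 6, and with 100 kb Il1a had 46 and Il1b 44, so that the order of the ligands turned. With peaks at or above the median score only, Il1a had 11, Il1b 10 and Il1rn 6. Counted as extended regions, Il1b had 18. Within 2500 bp of a start site in place of 1000 bp, the best score became 748 for Il1a and 1799 for Il1b, since the summits at 1784 and 2329 bp upstream then entered, and Il1b moved ahead of Il1rn (1543). All 3 genes had a start site peak under every start site alternative run. Leaving out the merged call's peak over Il1b was added after the values were seen. No paired analysis was possible because the lists carry no column per library, so that replicate numbers cannot be used, and no replicate could be left out. The precision of every score is unknown for the same reason.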
